A study of Mus musculus with 6 samples.

Results

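The genes described are the TGF-beta and BMP signalling genes of mouse lung: the ligands of the transforming growth factor beta (TGF-beta) superfamily, their latent binding proteins, receptors, SMAD transducers and secreted antagonists. They were taken from the count tables by symbol, as names starting with Tgfb, Tgfbr, Bmp, Gdf, Smad, Ltbp or Grem and a digit, or with Acvr, Bmpr or Inhb, and as Nog and Chrd. The choice used no measured value and gave 59 of 23238 gene symbols. It also takes in 3 products that are neither ligands, receptors nor transducers: Bmp1, a secreted protease, Bmp2k, a kinase, and Tgfb1i1, the focal adhesion protein Hic-5. Lung tissue of wild-type mice given PM was compared with lung tissue of wild-type mice given phosphate-buffered saline (PBS), the vehicle, both i.t. The title of the series calls the exposure chronic, and the comparison asks what that exposure does to lung transcripts. Neither PM nor i.t. is spelled out in the labels, and no dose, duration or age is given. Each group has 3 samples, but PBS replicate 2 held the same values as PBS replicate 1 in each of 23282 entries, so the pair was counted as 1 sample, which left 3 PM and 2 PBS libraries. Separate animals are not stated, and the p-values therefore reflect sample-to-sample spread, which may be technical.

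Ligands of this superfamily are secreted dimers that bring together type I and type II receptor kinases, and the type I kinase phosphorylates receptor SMADs. TGF-betas and activins act mainly through SMAD2 and SMAD3, and BMPs through SMAD1, SMAD5 and SMAD9, each set with the shared partner SMAD4, while SMAD6 and SMAD7 inhibit. In the lung, TGF-beta is known for matrix production and repair, and BMP signalling through ACVRL1 and BMPR2 for the upkeep of the vascular endothelium.

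None of the 59 genes passed the test in PM lung. The largest difference was that of Inhba, the activin A subunit, at a fitted 7.35 times its PBS level, and the smallest p was that of Ltbp4, a latent TGF-beta binding protein, at 0.645 times. Of the 59, 42 passed the filter on low counts and were tested. By the quasi-likelihood test of edgeR, at a Benjamini-Hochberg adjusted p under 0.05, 0 were called higher and 0 lower, where 0.142% of all 14057 genes tested were called higher and 0.0854% lower, 0.228% in all. When edgeR's Benjamini-Hochberg limit was set to 0.10, 1 member was called, Ltbp4, and 1.47% of all genes. At an unadjusted p below 0.05, 2 of the 42 were higher, Inhba and Tgfbr1, where 7.26% of all genes were. At that p, 6 were lower, among them Tgfb2, Ltbp4, Acvrl1, Bmpr2 and Tgfb1i1, where 6.05% of all genes were. DESeq2, another count test, called Inhba higher and Ltbp4 lower, against 1.90% of all genes higher and 0.818% lower, 2.72% in all, and limma-voom called 0 of the 42 in either direction, against 0.0854% of all genes higher and 0.0356% lower, 0.121% in all. The groups did not overlap for 9 members, with PM above PBS in 3 and below it in 6, against 15.5% of all genes above and 16.1% below. The median log2 fold, PM minus PBS, was -0.07 over the 42 members and 0.01 over all genes tested, and 37 of the 42 folds were within 0.5 of 0.

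**Figure D1:**
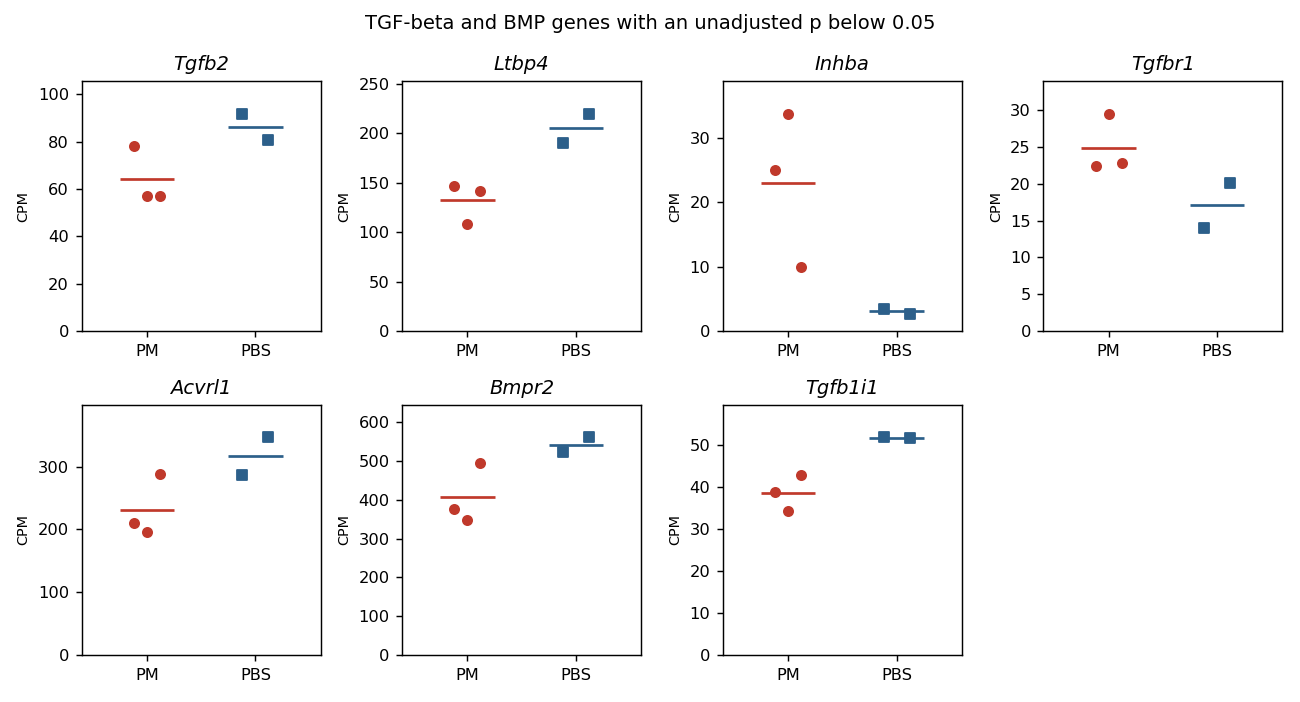
TMM-scaled CPM (vertical axes, from 0) of 7 TGF-beta and BMP genes with an unadjusted p below 0.05, in 3 PM libraries (circles) and 2 PBS libraries (squares); horizontal lines are group means. Inhba stood at 9.96 to 33.8 CPM in PM and 2.72 to 3.48 CPM in PBS, and Acvrl1 is the panel in which the groups overlap.

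The promoters of 4 members are shown because their genes carry the results below: Inhba and Ltbp4, which had the smallest p-values, and Bmpr2 and Smad6, a BMP receptor and an inhibitory SMAD that were low in the same PM libraries. Each window runs 5′ to 3′ from 250 bases before to 50 bases after a start site, from RefSeq on GRCm38.p6. Capitals mark matches to 4 motifs searched on both strands: the SMAD palindrome GTCTAGAC, the shorter SMAD element CAGAC, the GC-rich SMAD element GGCGCC and the AP-1 element TGANTCA. The Inhba window is chr13:16011601-16011900, plus strand, the Ltbp4 window, the farthest upstream of 3, is chr7:27337563-27337862, minus strand, the Bmpr2 window is chr1:59764029-59764328, plus strand, and the Smad6 window is chr9:64022010-64022309, minus strand.
Inhba: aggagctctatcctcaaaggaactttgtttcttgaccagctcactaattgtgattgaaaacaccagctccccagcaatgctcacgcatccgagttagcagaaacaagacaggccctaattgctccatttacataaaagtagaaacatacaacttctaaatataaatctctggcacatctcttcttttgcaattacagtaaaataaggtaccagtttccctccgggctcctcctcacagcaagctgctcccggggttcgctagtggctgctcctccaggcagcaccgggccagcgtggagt
Ltbp4: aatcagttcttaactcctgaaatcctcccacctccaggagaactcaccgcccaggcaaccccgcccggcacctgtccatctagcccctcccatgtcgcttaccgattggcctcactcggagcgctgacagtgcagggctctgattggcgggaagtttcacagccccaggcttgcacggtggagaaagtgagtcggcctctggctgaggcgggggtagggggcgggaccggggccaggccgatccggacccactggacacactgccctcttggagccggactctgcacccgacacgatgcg
Bmpr2: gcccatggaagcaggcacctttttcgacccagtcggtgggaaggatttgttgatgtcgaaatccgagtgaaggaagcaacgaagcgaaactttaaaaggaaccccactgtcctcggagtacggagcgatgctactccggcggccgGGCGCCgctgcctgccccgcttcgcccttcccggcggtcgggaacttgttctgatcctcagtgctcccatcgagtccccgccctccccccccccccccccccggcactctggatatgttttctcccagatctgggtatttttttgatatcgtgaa
Smad6: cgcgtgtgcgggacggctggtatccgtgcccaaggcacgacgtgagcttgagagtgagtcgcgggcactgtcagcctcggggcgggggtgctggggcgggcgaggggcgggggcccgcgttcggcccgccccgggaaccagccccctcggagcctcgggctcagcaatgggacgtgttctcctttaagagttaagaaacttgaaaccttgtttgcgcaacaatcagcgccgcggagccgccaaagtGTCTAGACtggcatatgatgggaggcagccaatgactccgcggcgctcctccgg
The Inhba and Ltbp4 windows held none of these letter strings. The Smad6 window held the palindrome across its start site, beginning at base -4, and the Bmpr2 window held GGCGCC beginning at base -105. Among all 32851 windows in the table, GTCTAGAC was in 0.213%, CAGAC in 49.6%, GGCGCC in 11.9% and TGANTCA in 7.81%. The 39 windows of the 30 tested members found there held them in 2.56%, 48.7%, 30.8% and 2.56%. Here 2.56% is 1 window, which for GTCTAGAC is the Smad6 window above. GGCGCC consists of G and C only. The G and C content was 47.7% in the Inhba window, 64.3% in Ltbp4, 59.3% in Bmpr2 and 66.3% in Smad6, against a median of 52.7% over all windows. Whether the shares differ beyond base content was not tested. Matches to different motifs can overlap by at most 2 bases.

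Among the ligands, the activin A subunit stood apart. Inhba (chr13:16011851-16031621 in GENCODE M21, GRCm38) had 25.1, 33.8 and 9.96 CPM (the read count scaled for library size by TMM, the trimmed mean of M values) in PM replicates 1, 2 and 3, and 3.48 and 2.72 CPM in PBS replicates 1 and 3. All PM libraries were above both PBS libraries, and PM replicate 3 was the lowest of them. Behind these levels were 215, 236 and 79 reads in PM and 30 and 22 in PBS. The log2 fold was 2.88 ± 0.57 SE (edgeR's quasi-likelihood test, Benjamini-Hochberg adjusted p = 0.110; DESeq2, adjusted p = 4.47e-07). Leaving out PM replicate 2 or 3 put it past edgeR's test (Benjamini-Hochberg adjusted p = 0.0482 and 0.000288), with log2 folds of 2.50 and 3.24, and the highest adjusted p with any library left out was 0.666.

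Inhbb, the activin B subunit, had 2.92, 8.60 and 3.40 CPM in PM and 3.13 and 4.32 CPM in PBS, so that only PM replicate 2 was above the PBS libraries. The other beta subunits of the table, Inhbc and Inhbe, were at 0 counts in every library, which allows up to 0.348 to 0.43 CPM by counting error alone. Inha, the inhibin alpha subunit, from a list of other pathway genes, had 7, 13 and 21 reads in PM and 7 and 7 in PBS, and its groups overlapped. Activin's binding protein Fstl3, from the same list, had 67.4, 66.2 and 75.0 CPM in PM and 95.3 and 89.2 CPM in PBS, with a log2 fold of -0.41 ± 0.12 SE (edgeR, Benjamini-Hochberg adjusted p = 0.158).

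Most macrophage markers were higher beside Inhba, and their sum had its order of PM libraries. The 12 macrophage and monocyte markers summed to 1222, 1773 and 1000 CPM in PM replicates 1, 2 and 3 and to 358 and 481 CPM in PBS, with none at 0. In 10 of the 12 all PM libraries lay above PBS, against 15.5% of all genes, and Marco and Csf1r overlapped. Chil3 alone made up 590.7, 1013.6 and 453.0 CPM of the sum in PM and 18.2 and 126.9 CPM in PBS, and without it, a sum added after the data were seen, the rest came to 631, 760 and 547 CPM in PM and 339 and 354 CPM in PBS. Both sums ran in Inhba's order of PM libraries, as did 5 of the 12 markers singly. Of the 12, 2 were lowest of the PM libraries in PM replicate 2, where Inhba was highest, Marco and Fabp4. Others, such as Chil3 and Mrc1, were highest there. The 6 neutrophil markers summed to 268, 206 and 923 CPM in PM and 267 and 131 CPM in PBS. S100a8 and S100a9 made up 341.9 and 459.9 CPM of the sum in PM replicate 3. Of the 6, 2 lay above PBS in all PM libraries, Retnlg and Mmp8, and 4 overlapped. The part of either cell type in the Inhba result was not tested, and in whole tissue more cells of a type and more RNA per cell cannot be told apart.

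Of the TGF-beta ligands, Tgfb2 and Tgfb3 were tested, at 12.6 and 5.51 CPM per kilobase of exon over all libraries. No rank is given to Tgfb1, whose count was near 0. Tgfb2 (chr1:186622792-186705989) had 78.3, 56.9 and 56.9 CPM in PM and 91.8 and 80.6 CPM in PBS, with all PM libraries below. Its log2 fold was -0.43 ± 0.16 SE (edgeR, Benjamini-Hochberg adjusted p = 0.263). Tgfb3 averaged 18.7 ± 1.36 CPM in PM (SD, n = 3) and 18.5 ± 4.58 CPM in PBS (SD, n = 2), a log2 fold of 0.01 ± 0.21 SE. Tgfb1, the ligand best known from inflammation and fibrosis, had 2, 1 and 1 reads in PM and 1 and 2 in PBS, below the floor of 3 reads in every library, and no fold is given. Exons of no other gene in GENCODE M21 overlap those of Tgfb1, and whether the low count reflects the transcript or the counting and annotation was not tested.

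Latent binding proteins tether the inactive TGF-beta complex to the matrix. Ltbp4 (chr7:27305136-27337692), which also serves elastic fibre assembly, was the most abundant of the 4 at 24.9 CPM per kilobase. It had 146.6, 108.1 and 141.5 CPM in PM and 190.1 and 219.7 CPM in PBS, with no overlap and the lowest value in PM replicate 2. Its log2 fold was -0.63 ± 0.14 SE (edgeR, Benjamini-Hochberg adjusted p = 0.0813; DESeq2, adjusted p = 0.0142). Without PM replicate 3 it passed edgeR's test (Benjamini-Hochberg adjusted p = 0.0377), and the highest adjusted p with any library left out was 0.627. Ltbp3, next in abundance at 13.1 CPM per kilobase, averaged 117.7 ± 5.57 CPM in PM (SD, n = 3) and 120.7 ± 1.18 CPM in PBS (SD, n = 2). Ltbp1 and Ltbp2 overlapped between groups as well, at 5.72 and 3.25 CPM per kilobase.

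BMP ligands were dominated by Bmp4, which acts in the lung mesenchyme and endothelium, at 209 CPM per kilobase against 4.78 for Bmp3, the next. Bmp4 (chr14:46383520-46390669) had 460.4, 491.6 and 405.8 CPM in PM and 533.3 and 455.0 CPM in PBS, and the groups overlapped. Its log2 fold was -0.13 ± 0.12 SE (edgeR, Benjamini-Hochberg adjusted p = 0.713). Bmp3 averaged 33.9 ± 3.54 CPM in PM (SD, n = 3) and 37.5 ± 9.14 CPM in PBS (SD, n = 2). Of the 10 BMP ligands, 6 were tested, with log2 folds from -0.40 to 0.10 and overlapping groups in all 6. Bmp8a, Bmp8b, Bmp10 and Bmp15 had at most 7 reads in any library, and reads of the close paralogs Bmp8a and Bmp8b may be divided between them.

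Of the 10 GDF ligands, 3 were tested, all with overlapping groups. Gdf15, a stress-induced ligand, had 10.5, 9.89 and 3.66 CPM in PM and 9.39 and 5.19 CPM in PBS, a log2 fold of 0.13 ± 0.45 SE. PM replicate 3 held the lowest value of the 5 libraries. Gdf10, also called BMP3B, averaged 6.10 ± 0.808 CPM in PM (SD, n = 3) and 4.39 ± 1.66 CPM in PBS (SD, n = 2). Gdf2, the ligand BMP9 of ACVRL1 that is made mainly in the liver, had 2 to 16 reads in PM and 9 and 11 in PBS. The 7 GDF genes below the filter had at most 10 reads in any library.

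**Figure D2:**
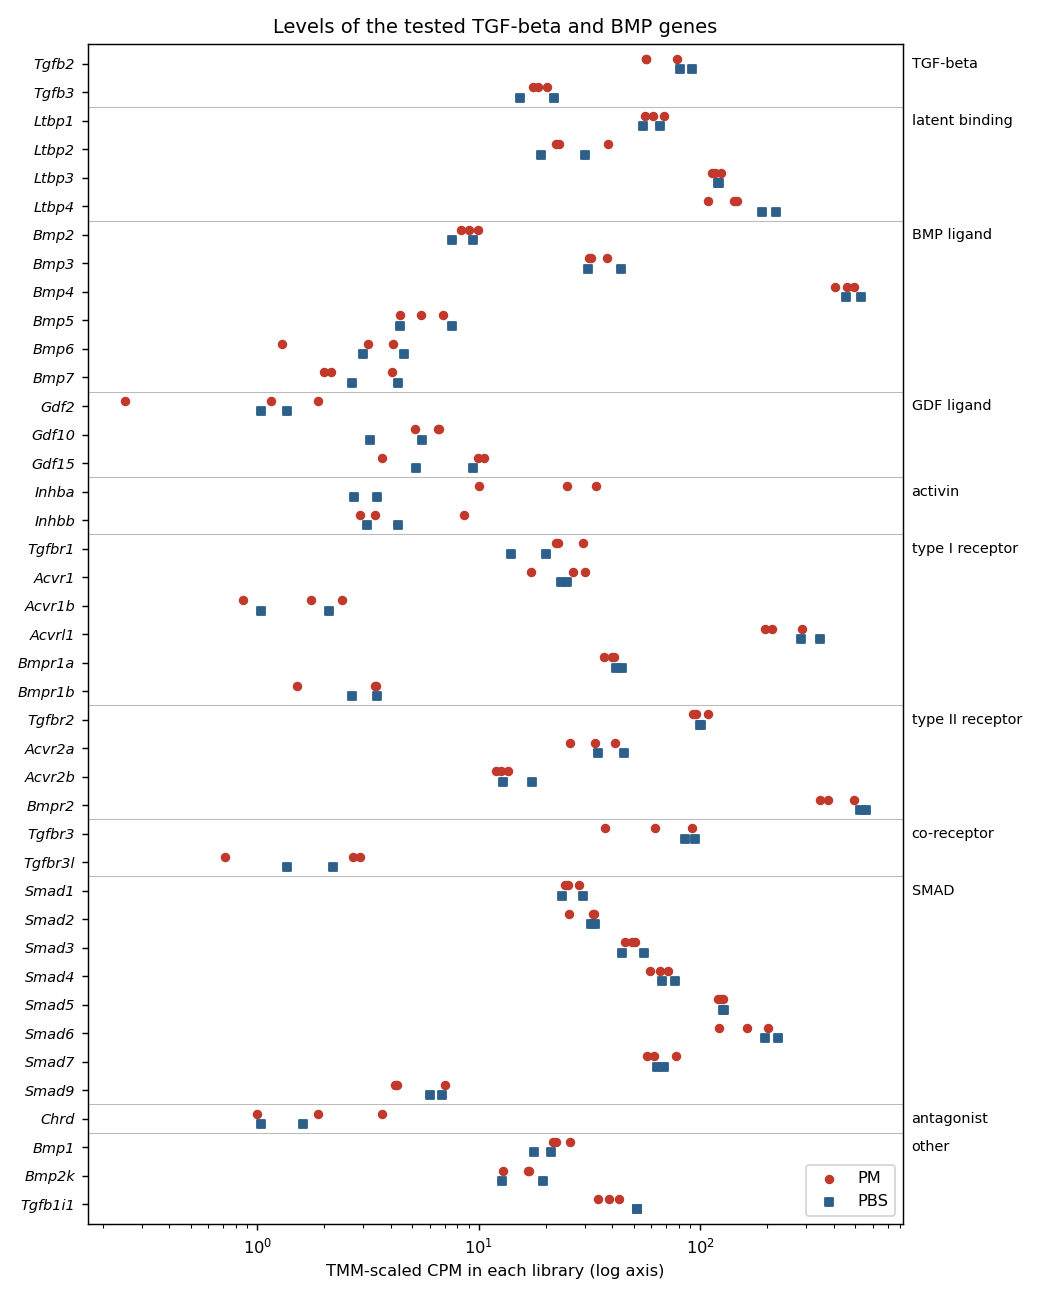
TMM-scaled CPM of 41 of the 42 tested TGF-beta and BMP genes (log axis) in 3 PM libraries (circles, upper of each pair) and 2 PBS libraries (squares, lower), ordered by role. Bmp4 and Bmpr2 had the highest CPM, at 406 to 533 and 348 to 561, and for 33 of the genes shown the groups overlap.

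The receptors of BMP9 and BMP4 on endothelium were among the most abundant members and lay lower in PM replicates 1 and 2. Acvrl1 (ALK1, chr15:101128522-101145336), a type I receptor at 62.2 CPM per kilobase, had 209.9, 195.5 and 288.0 CPM in PM replicates 1, 2 and 3 and 285.8 and 346.5 CPM in PBS. PM replicate 3 lay within the PBS range and the other PM libraries below it. The log2 fold was -0.45 ± 0.17 SE (edgeR, Benjamini-Hochberg adjusted p = 0.287). Bmpr2 (chr1:59763400-59879014), the type II BMP receptor and a gene of inherited pulmonary hypertension in humans, had 376.5, 347.5 and 495.3 CPM in PM and 522.5 and 560.9 CPM in PBS. All PM libraries were below, with PM replicate 3 nearest to PBS, and the log2 fold was -0.41 ± 0.15 SE (edgeR, Benjamini-Hochberg adjusted p = 0.249). Without PM replicate 3 both receptors passed edgeR's test (Benjamini-Hochberg adjusted p = 0.0218 for Acvrl1 and 0.0202 for Bmpr2), with log2 folds of -0.64 and -0.58, and the highest adjusted p with any library left out was 0.863 and 0.827. Exons of Acvrl1 overlap those of Gm16031 on the opposite strand, and counts there cannot be told apart without known strand use.

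Co-receptors present ligand to these kinases, and both abundant ones had their lowest level in PM replicate 2. Tgfbr3 (betaglycan) had 62.1, 37.1 and 91.7 CPM in PM and 85.1 and 94.6 CPM in PBS, a log2 fold of -0.49 ± 0.38 SE, with PM replicate 3 inside the PBS range. Eng, endoglin, the endothelial partner of ACVRL1 and a gene of the other receptor list, had 147.4, 125.5 and 140.0 CPM in PM and 229.5 and 203.2 CPM in PBS. All PM libraries of Eng were below both PBS libraries, and its log2 fold was -0.65 ± 0.12 SE (edgeR, Benjamini-Hochberg adjusted p = 0.0525; DESeq2, adjusted p = 0.000794). Tgfbr3l, a related gene, had 5 to 23 reads in PM and 11 and 19 in PBS.

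The receptor kinases for TGF-beta itself differed from each other. Tgfbr1, the type I TGF-beta receptor, had 22.4, 29.5 and 22.8 CPM in PM and 14.0 and 20.1 CPM in PBS, with all PM libraries above. Its log2 fold was 0.54 ± 0.22 SE (edgeR, Benjamini-Hochberg adjusted p = 0.303). Tgfbr2, its type II partner, had 92.7, 95.2 and 108.3 CPM in PM and 100.7 and 99.3 CPM in PBS, with PM replicates on both sides of PBS and a log2 fold of -0.02 ± 0.12 SE. Bmpr1a, a type I BMP receptor, averaged 39.1 ± 2.10 CPM in PM (SD, n = 3) and 42.9 ± 2.13 CPM in PBS (SD, n = 2), with all PM libraries below and a log2 fold of -0.13 ± 0.14 SE. Of the other receptors, Acvr1, Acvr1b, Bmpr1b, Acvr2a and Acvr2b had overlapping groups, and Acvr1c had at most 12 reads in any library.

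SMAD levels differed little between groups. All 8 were tested, all 8 had overlapping groups, and their log2 folds ran from -0.37 to -0.01. All 8 lay below 0, where 48.9% of all genes did. That held under every scaling tried, but these moved the median over all genes only between 0.008 and 0.013. Smad7, nearest to 0 and named after its values were seen, was at -0.01 ± 0.15 SE, so its sign is not settled. It had 77.3, 57.5 and 62.0 CPM in PM and 63.7 and 68.4 CPM in PBS. Smad6, the inhibitory SMAD of the BMP branch and a BMP target, was the most abundant at 56.4 CPM per kilobase, followed by the shared partner Smad4 at 18.3. Smad6 (chr9:63953076-64022059) had 161.8, 121.7 and 201.0 CPM in PM and 223.7 and 195.1 CPM in PBS, with PM replicate 3 above PBS replicate 3. Its log2 fold was -0.37 ± 0.19 SE (edgeR, Benjamini-Hochberg adjusted p = 0.445). Smad4 averaged 65.4 ± 6.12 CPM in PM (SD, n = 3) and 72.0 ± 6.78 CPM in PBS (SD, n = 2), a log2 fold of -0.14 ± 0.13 SE.

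Among the antagonists, which bind BMPs outside the cell, Chrd, chordin, averaged 2.18 ± 1.35 CPM in PM (SD, n = 3) and 1.32 ± 0.398 CPM in PBS (SD, n = 2), and Grem1 and Nog, noggin, had at most 4 reads in any library. Of the products taken in by symbol, Tgfb1i1 had 38.8, 34.4 and 43.0 CPM in PM and 51.9 and 51.7 CPM in PBS, all PM libraries below, with a log2 fold of -0.42 ± 0.14 SE (edgeR, Benjamini-Hochberg adjusted p = 0.228). Bmp1, which cleaves procollagen and chordin, had 25.7, 21.6 and 22.3 CPM in PM and 21.1 and 17.7 CPM in PBS, a log2 fold of 0.26 ± 0.18 SE.

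**Figure D3:**
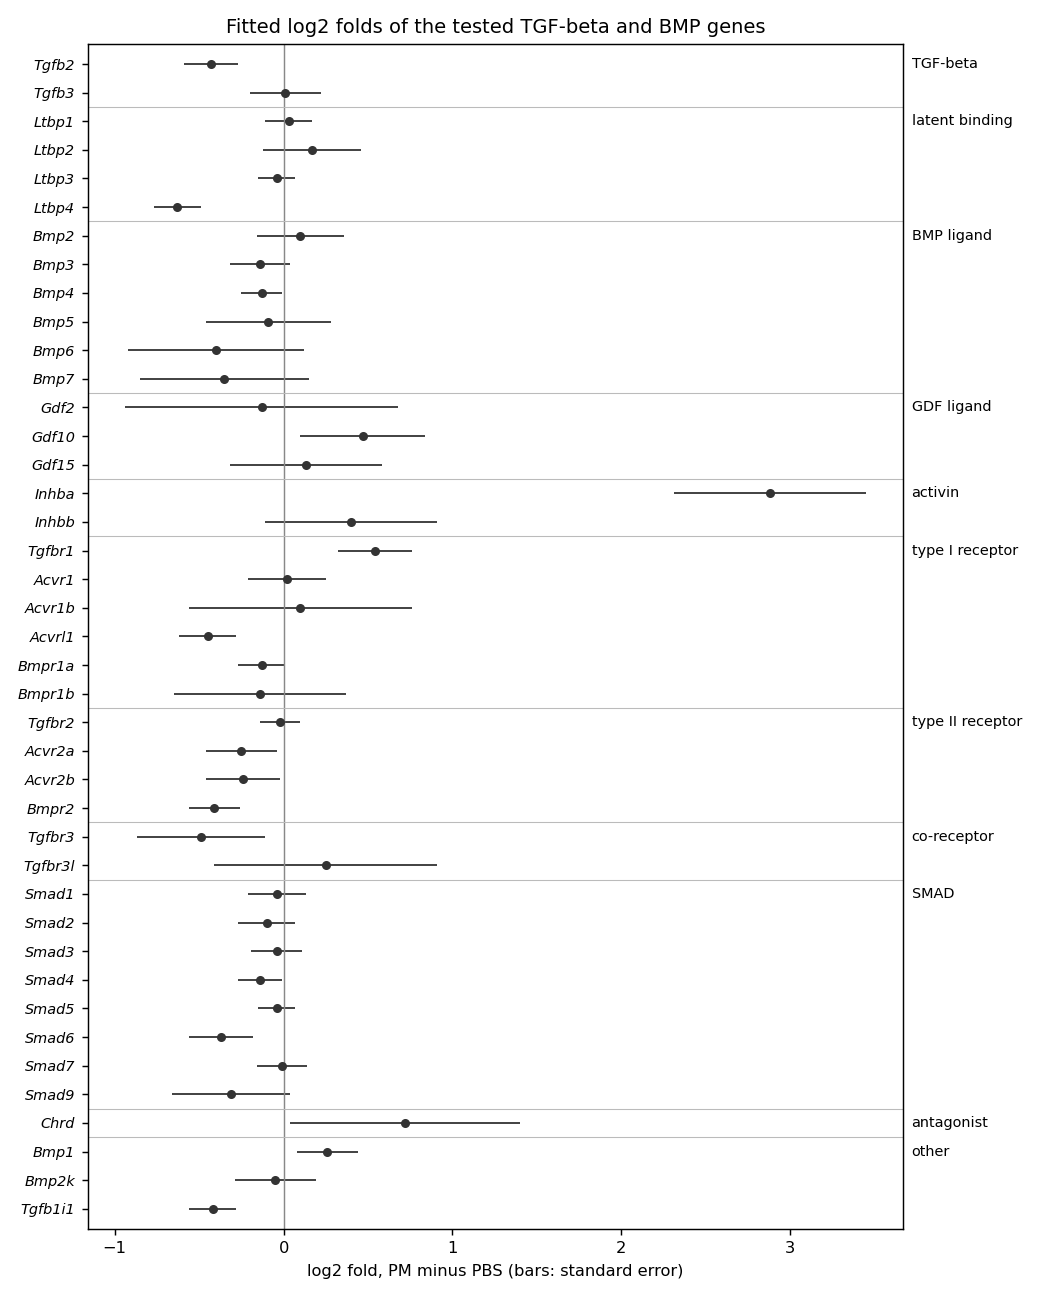
Fitted log2 folds, PM minus PBS, of 41 of the 42 tested TGF-beta and BMP genes (points) with standard errors (bars), ordered by role; the vertical line marks 0. Inhba at 2.88 lies far to the right, the lowest fold shown is that of Ltbp4 at -0.63, and none passed edgeR's test.

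Endothelial and alveolar type 1 cell markers were lower beside these genes, and fibroblast markers were mixed. The 10 endothelial markers summed to 2839, 2428 and 2994 CPM in PM replicates 1, 2 and 3 and to 3338 and 3537 CPM in PBS, and 6 of the 10 were lower in all PM libraries, against 16.1% of all genes. The 11 fibroblast markers summed to 4103, 3815 and 3242 CPM in PM and 5251 and 4889 CPM in PBS, but 6 of the 11 overlapped between groups and 5 were lower in all PM libraries. Without Inmt, the most abundant of them, the fibroblast sums overlapped, at 2382, 2551 and 1530 CPM in PM and 2498 and 2320 CPM in PBS. The 6 alveolar type 1 cell markers summed to 3569, 3527 and 3749 CPM in PM and 4752 and 4730 CPM in PBS, and 5 of the 6 were lower in all PM libraries. The endothelial and type 1 sums stayed lower in all PM libraries without their most abundant marker. Alveolar type 2 markers overlapped, at 20616 to 23652 CPM in PM and 18405 and 22621 CPM in PBS, with the surfactant gene Sftpc present in every library. No marker of these 4 lists was at 0.

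Set against the summed endothelial markers, a ratio chosen after the values were seen, Acvrl1 came to 7.39%, 8.05% and 9.62% of that sum in PM and 8.56% and 9.80% in PBS. Bmpr2 came to 13.3%, 14.3% and 16.5% in PM and 15.7% and 15.9% in PBS, and Smad6 to 5.70%, 5.01% and 6.71% in PM and 6.70% and 5.52% in PBS, so that the groups of all 3 overlapped. Eng remained lower in all PM libraries, at 5.19%, 5.17% and 4.68% in PM and 6.87% and 5.75% in PBS, and so did Ltbp4, at 5.16%, 4.45% and 4.73% in PM and 5.69% and 6.21% in PBS. Under the same ratio Tgfbr2 was higher in all PM libraries, at 3.26%, 3.92% and 3.62% in PM and 3.02% and 2.81% in PBS, and Bmp4 overlapped, at 16.2%, 20.3% and 13.6% in PM and 16.0% and 12.9% in PBS. Eng is itself expressed mainly by endothelium, whereas Ltbp4 is not a marker of it. The log2 folds of the 10 endothelial markers ran from -0.62 for Tie1 to 0.02 for Cldn5, against -0.65 for Eng. Eng thus lay below all 10 of them and close to Tie1, with an SE of 0.12 for each of the 2. Whether Eng differs from single endothelial markers was not tested. The part of cell number in the levels was not tested.

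**Figure D4:**
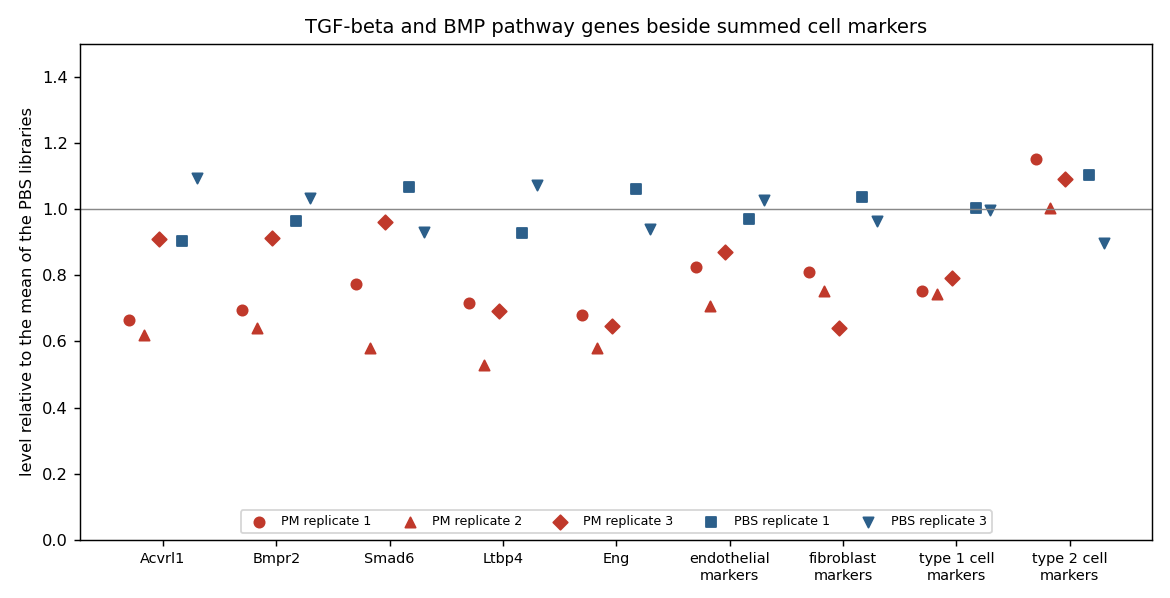
Level in each library relative to the mean of the PBS libraries (vertical axis, from 0) for 5 pathway genes and 4 summed marker lists; PM libraries are red and PBS libraries blue, with a symbol for each library. PM replicate 3 sits close to PBS for Acvrl1, Bmpr2 and Smad6, and all PM libraries are below PBS for Ltbp4, Eng and the summed endothelial, fibroblast and alveolar type 1 markers; the fibroblast sums overlap without Inmt.

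Other genes of the pathway and its known targets were taken from 6 lists. The target lists also hold members described above, Ltbp2 and Smad7 as TGF-beta targets and Smad6, Smad7 and Smad9 as BMP targets. Thbs1, Skil and Pmepa1 are in a pathway list and also among the TGF-beta targets. Bambi is in the receptor list and also among the BMP targets. The counts of pathway and target lists are therefore not separate. In the 4 pathway lists together, 57 of 69 genes were tested and 0 were called by edgeR's test, with 2 higher and 8 lower before adjustment at p under 0.05, and 0 higher and 2 lower called by DESeq2. These were 3.51% higher and 14.0% lower before adjustment, where 7.26% and 6.05% of all genes were, and DESeq2 called 1.90% of all genes higher and 0.818% lower. Extracellular ligands and binding proteins had the lowest median log2 fold of the 4, -0.33 over 14 tested, with 0 higher and 5 lower at that p. Bgn, biglycan, a matrix proteoglycan that binds TGF-beta, led it with 417.4, 405.0 and 405.0 CPM in PM and 625.2 and 577.0 CPM in PBS. The PM libraries lay close together and below both PBS libraries, with a log2 fold of -0.56 ± 0.11 SE (edgeR, Benjamini-Hochberg adjusted p = 0.0530; DESeq2, adjusted p = 0.000253).

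Other receptors and co-receptors had a median log2 fold of -0.27 over 8, with 2 lower at that p, Eng and Neo1. Neo1, neogenin, a receptor of the BMP co-receptors of the RGM family, had 56.7, 44.0 and 43.6 CPM in PM and 72.5 and 67.7 CPM in PBS (edgeR, Benjamini-Hochberg adjusted p = 0.140). Genes of TGF-beta latency and activation had a median of -0.04 over 15, with 1 higher at that p. That gene was Thbs1, thrombospondin-1, which can activate latent TGF-beta, at 46.0, 83.1 and 56.7 CPM in PM and 39.4 and 37.2 CPM in PBS. Itgb6, the beta subunit of a TGF-beta-activating epithelial integrin, had 28.0, 38.6 and 24.6 CPM in PM and 44.5 and 36.7 CPM in PBS, and the groups overlapped. Intracellular regulators had a median of -0.05 over 20, with Tgif1, a SMAD co-repressor, at a log2 fold of 0.46 and Map3k7, the kinase TAK1, at -0.30.

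Known TGF-beta targets went both ways. Their median log2 fold was 0.09 over 26 tested, with 0 called by edgeR's test. Without adjustment, p was under 0.05 for 4 that were higher, 15.4% against 7.26% of all genes, and for 5 that were lower, 19.2% against 6.05%. DESeq2 called 1 higher and 0 lower, where it called 1.90% of all genes higher and 0.818% lower. Snai1 and Snai2, transcription factors of epithelial-mesenchymal transition, were at log2 folds of -0.67 ± 0.18 and -0.68 ± 0.17 SE (edgeR, Benjamini-Hochberg adjusted p = 0.139 and 0.115). Snai2 had 18.1, 20.5 and 19.9 CPM in PM and 28.5 and 33.8 CPM in PBS, and all PM libraries were below. Acta2, smooth muscle actin, named after its values were seen and the gene called by DESeq2, had 241.8, 272.4 and 185.1 CPM in PM and 170.4 and 135.5 CPM in PBS. All PM libraries were above both PBS libraries (edgeR, Benjamini-Hochberg adjusted p = 0.153). Acta2 is also 1 of 10 smooth muscle and pericyte markers, whose sums overlapped, at 547, 591 and 433 CPM in PM and 511 and 443 CPM in PBS. In that list only Acta2 was above PBS in all PM libraries, 2 were below and 7 overlapped. Des, 1 of those below, was at a log2 fold of -0.74 (DESeq2, adjusted p = 0.0424).

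Known BMP targets had a median log2 fold of -0.35 over 13 tested, with 0 called by edgeR's test or DESeq2. Of the 13, 10 lay below 0, where 48.9% of all genes did. Those 10 include Smad6, Smad7 and Smad9, already counted among the SMADs, so the results are not separate. Before adjustment at p under 0.05, 0 were higher and 1 was lower, a share of 7.69% that is near the 6.05% of all genes. Hey1, a target shared with Notch signalling, had 39.0, 43.6 and 61.2 CPM in PM and 65.5 and 77.4 CPM in PBS, with all PM libraries below and PM replicate 3 the highest of them (log2 fold -0.58 ± 0.19 SE; edgeR, Benjamini-Hochberg adjusted p = 0.204). Id1 and Id3, direct SMAD targets of BMP named after their values were seen, overlapped between groups. Id1 had 133.4, 111.5 and 163.3 CPM in PM and 126.9 and 195.8 CPM in PBS, and Id3 had 166.1, 128.6 and 172.8 CPM in PM and 155.8 and 270.4 CPM in PBS. The PBS libraries differed more from each other for both than the PM libraries did from PBS replicate 1.

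**Figure D5:**
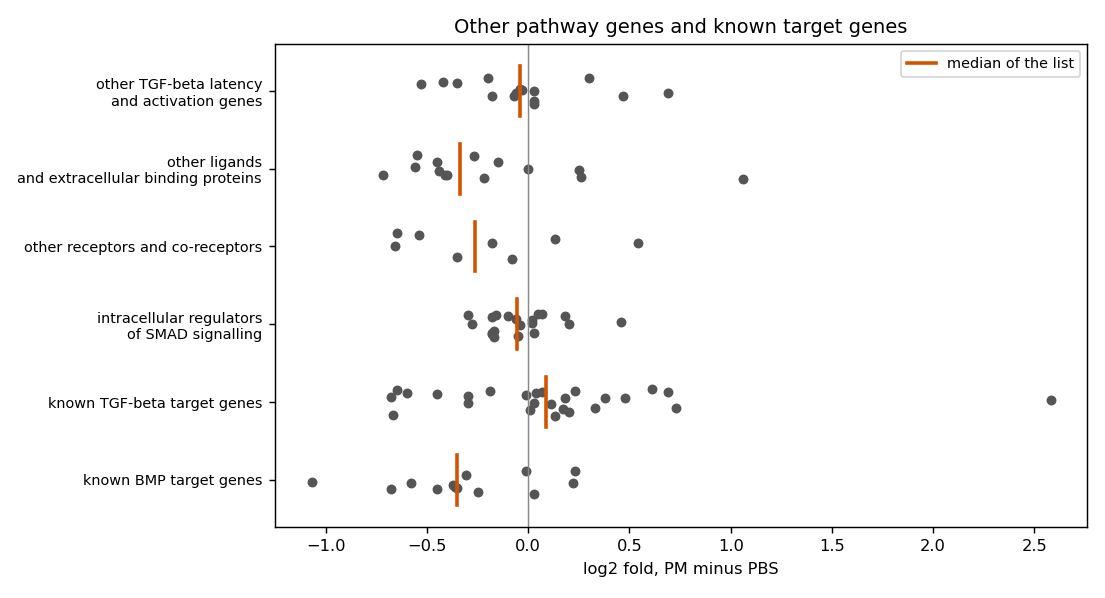
Log2 folds, PM minus PBS (horizontal axis), of the tested genes of 6 lists of other pathway genes and known targets (points, spread vertically for legibility), with each list's median (orange). Medians run from -0.35 for BMP targets to 0.09 for TGF-beta targets, and 0 genes of these lists passed edgeR's test.

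Single libraries set several of these values. Over the 42 tested members, the median of log2(CPM + 0.5) relative to the PBS mean was 0.025, -0.195 and -0.077 in PM replicates 1, 2 and 3. PM replicate 2 also had the lowest Ltbp4, Bmpr2, Acvrl1, Tgfbr3 and Smad6 of the 5 libraries and the highest Inhba. Total counts were 7410200 to 8827202 per library. The share of Rn45s, from which ribosomal RNA is cut, was 23.6%, 25.4% and 15.7% in PM replicates 1, 2 and 3. In PBS replicates 1 and 3 that share was 18.2% and 16.3%. It was thus highest in PM replicates 1 and 2, where Acvrl1, Bmpr2 and Smad6 were low. With Rn45s and haemoglobin genes left out, their log2 folds stayed at -0.45, -0.41 and -0.37. Whether the libraries' Rn45s share bears on these levels in another way was not tested.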

How the data were processed

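Gene expression was measured by RNA sequencing of mouse lung in 6 samples, 3 given PM and 3 given PBS. The authors deposited raw counts, reads per gene symbol without normalization. The submitters' processing notes name TopHat, Cufflinks and mm10. Not given in the sources used here: versions, roles, counting program, annotation and use of strand. Per the labels' protocols, libraries were made with the SENSE mRNA-Seq kit.

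Identical tables were counted once, a blank entry was left out, and 44 entries that repeated a symbol with a lower count were set aside. The test was that of edgeR 4.0.16 (R 4.3.3): filterByExpr, TMM scaling, and the robust quasi-likelihood test of PM against PBS, two-sided, with no covariates, with Benjamini-Hochberg adjustment over 14057 genes. Standard errors are absolute log2 folds over the root of the F statistic. Levels are TMM-scaled CPM, and levels of different genes are compared per kilobase of exon in GENCODE M21 (GRCm38, the assembly of mm10), which may differ from the authors' annotation. Of the 59 members, 20 share exon bases there with another gene. Depth per gene is its count, and the floor of 3 counts covers counting error only. The procedure was tested on simulated counts, with changes set only in genes of higher counts. It called 183 genes, 17 of them falsely. Of 100 genes changed 2-fold it recovered 67, and of 100 changed 4-fold it recovered 99, so it can miss 2-fold changes.

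Members named with values were those with the 10 smallest p-values, the 2 highest levels per kilobase in each role, and the 2 smallest p-values in each other list; further genes are marked where they were named after their values were seen. The members and lists were chosen with earlier results of these data known. No set test was run, and the values of 1 member and 1 target gene are not reported here. Alternatives were other scalings and filters, each library left out, a replicate block, limma-voom 3.58.1, DESeq2 1.42.0, an adjusted p of 0.10, all 6 tables, and counts without Rn45s and haemoglobin genes. Marker sums without their most abundant gene were added after the data were seen. Promoter sequences are RefSeq's, on GRCm38.p6.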

Additional observations from a re-analysis of the deposited data

How the results depend on the processing

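The 0 members called became 1 without a filter on low counts (Ltbp4), 1 at an adjusted p below 0.10 (Ltbp4), and 2 each (Inhba and Ltbp4) with DESeq2, with the replicate block and with all 6 tables. With each library left out it ranged from 0 to 4, the 4 being Acvrl1, Bmpr2, Inhba and Ltbp4 without PM replicate 3, and the other scalings, the filter of 1 CPM in 2 libraries and limma-voom gave 0. Over all genes, 32 calls became 275 without a filter, 81 with the filter of 1 CPM in 2 libraries, 353 with the replicate block, 382 with DESeq2, 17 with limma-voom, 206 at an adjusted p below 0.10 and 635 with all 6 tables, and ranged from 1 to 427 with each library left out. Same-numbered libraries did not deviate together from their group means (correlations of -0.0283 for replicate 1 and 0.0569 for replicate 3), so the labels' numbers were not taken as pairs. The members' median log2 fold stayed between -0.12 and -0.04. Of 570 values of 38 genes under alternatives, 519 kept their direction and side of the threshold, 35 kept their direction and passed it, and 16 changed sign. None of the 38 was called in the main fit, so no call could be lost. Several alternatives, such as the other scalings, differed little from the main fit, and the limit of 0.10 used the main fit itself. With a library left out, log2 folds ranged from -0.22 to 0.29 for Tgfb3, -0.37 to 0.13 for Bmp3, -0.23 to 0.63 for Gdf15, -0.23 to 0.68 for Inhbb, -0.09 to 0.03 for Tgfbr2, -0.06 to 0.64 for Tgfbr3l and -0.52 to 0.10 for Id1. Signs also changed with the replicate block for Gdf15 (-0.12), Inhbb (-0.22) and Tgfbr2 (0.00), and with all 6 tables for Tgfb3 (-0.07). With each library left out, fits with 1 PBS library assume that it varies like the PM libraries. The cause of these changes was not tested. Members with under about 10 reads per library could not be compared at this depth.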
